A study of Mus musculus with 4 samples.

Results

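The genes described here are the 3 *Anp32* genes, *Anp32a*, *Anp32b* and *Anp32e*, and 7 further histone chaperone genes, *Set*, *Nap1l1*, *Nap1l4*, *Asf1a*, *Asf1b*, *Ssrp1* and *Daxx*. They were taken by symbol from a table of 16537 genes, and all 10 were found and passed the filter on low values. RNA was sequenced from YUMM1.7 cells, an established mouse melanoma line with an active *Braf* and without functional *Cdkn2a*, which the labels give as wild type and untreated apart from the fractionation. Cells sat overnight on membranes with 1-µm pores and fibronectin underneath, and the scraped upper side (cell bodies) was compared with the RNA left in the membrane (protrusions). There were 4 libraries, 2 per fraction, and both fractions of a replicate came from the same 6 inserts. All 4 libraries are from a single cell line, so the replicates show how repeatable the fractionation was and not how it varies between lines.

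Histone chaperones bind histones that are not in nucleosomes, shield their charge and hand them on during replication, transcription and repair. The ANP32 proteins have a leucine-rich repeat domain and a long tail of aspartate and glutamate. ANP32A and SET are also known as inhibitors of protein phosphatase 2A, ANP32A and ANP32B bind the mRNA-binding protein HuR, and ANP32E takes the histone variant H2A.Z out of chromatin. The proteins act mainly in the nucleus and cytosol, and the comparison asks where in the cell their mRNAs were found.

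Of the 10 mRNAs, *Anp32b* had the largest difference between the fractions, and its paralogs *Anp32a* and *Anp32e* had nearly none. The log2 fold changes of the paralogs were 0.10 and -0.00, and 0.23 for each after a correction for the GC content of transcripts. *Anp32b* was at 235 and 158 TPM in cell bodies replicates 1 and 2 and at 282 and 407 TPM in protrusions replicates 1 and 2 (TPM is a length-scaled unit of expression with the same total in every library). *Set* was 1.32-fold and *Daxx* 1.34-fold more abundant in protrusions by the fitted values, both with every protrusion library above every cell body library. At a Benjamini-Hochberg adjusted p under 0.05 (limma, over the 11400 genes whose mean TPM reached 1), 0 of the 10 passed, where 7.25% of all genes tested did, 2.99% as higher and 4.25% as lower. An unadjusted p under 0.05 was found for 2, *Anp32b* and *Set*, where 31.3% of all genes tested had one, and limma voom on reads recovered from the TPM also called 0. With the replicate number as a block, which compares the fractions of the same inserts, *Anp32b* and *Set* passed, both higher in protrusions, and none was lower. With that block 21.4% of all genes tested passed, 8.08% as higher and 13.3% as lower, so a count of 2 in 10 is near the share over all genes. With the block and a correction for the GC content of transcripts, 3 were higher, *Nap1l1* being added, and 0 lower, where 27.4% of all genes tested passed, 12.8% as higher and 14.6% as lower.

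Both guides that the study used to disrupt *Anp32b* by CRISPR/Cas9 are shown because they place the gene it took up as a candidate. They are written 5′ to 3′ in lower case as designed, without the bases that follow them in the genome.
Anp32b_1: caatggatggaaaaattgag
Anp32b_2: ggaagcacctgactcagatg
The first matches the plus strand of mm10 at chr4:46460121-46460140 in exon 2 of 7, at bases 86 to 105 of the coding sequence, and is followed by GGG. The second matches the plus strand at chr4:46468690-46468709 in exon 4, at bases 459 to 478 of the coding sequence, and is followed by TGG. Against the transcripts of the paralogs, the first guide had at least 5 mismatches in *Anp32a* and 7 in *Anp32e*, and the second at least 4 and 5. The study took *Anp32b* up partly from these same libraries, so its direction here is not independent evidence of localization.

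The coding sequences of the acidic chaperones carry long runs of purines, since the codons for aspartate and glutamate all begin with GA. The 30-base coding window richest in purines (the first where several tie) is shown for *Anp32a*, *Anp32b* and 4 others. It is shown because the study examined GA-rich stretches in a localized mRNA, that of *Kif1c*. Those stretches are in the 3′ UTR, while the windows here are coding sequence. Purines are in capitals and the other bases in lower case.
Anp32a: GAAGAGGAAGAGGAtGAGGAGGAAGAAGGG
Anp32b: GAAGAAGGAGAGGAtGAAGAGGAAGAGGAA
Set: GAtGAGGAtGAAGGGGAGGAAGGAGAGGAG
Nap1l1: GAGGAAGGGGAAGAAGAAGGAGAtGAGGAA
Daxx: GAGGAGGAGGAGGAGGAGGAAGAGGAGGAG
Asf1b: AGAcAGtctGGAAGccAtAGAAAAccAGGA
All lie on the plus strand of GRCm38, the assembly also named mm10. The *Anp32a* window is at chr9:62374692-62374721 in exon 5 of 7 and the *Daxx* window at chr17:33912696-33912725 in exon 5 of 8. The *Anp32b* window runs from exon 4 into exon 5 between positions 46468784 and 46469908 of chromosome 4, with the intron left out. The *Set* window crosses from exon 7 to 8 and the *Nap1l1* window from exon 12 to 13. The *Asf1b* window, in exon 4, holds 21 purines and is shown as the one with the fewest among the members. The *Anp32a* and *Anp32b* windows each hold 29 purines and the *Daxx* window 30. A coding window of 30 purines was found in 2.15% of 10541 tested genes with a coding sequence.

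The *Anp32b* gene lies on the plus strand of chromosome 4 of mm10, from 46451117 to 46472523, and encodes a chaperone known for roles in cell proliferation and survival. Its reads numbered 4954 and 2792 in cell bodies replicates 1 and 2 and 5195 and 9473 in protrusions replicates 1 and 2. Its mean was 196 ± 54.8 TPM in cell bodies and 344 ± 88.7 TPM in protrusions (SD, n = 2 each). Both protrusion libraries were above both cell body libraries, a position shared by 26.4% of all genes tested. The log2 fold change was 0.81 (SE 0.25, 95% confidence interval, CI, 0.20 to 1.43), and limma gave an adjusted p of 0.0953 without the block and of 0.0165 under it. The variance behind the latter came mostly from all genes tested (10.16 prior degrees of freedom in limma), not from the 2 replicates of *Anp32b*. *Anp32b* was 1.76-fold higher in protrusions by the fit, and 256 of the 11400 genes tested had a higher log2 fold change. That count keeps the sign, so genes with a large difference toward cell bodies are not in it.
The difference was not of the same size in both replicates. Within replicate 1 *Anp32b* was 1.20-fold higher in protrusions, and within replicate 2 it was 2.58-fold higher. The residual SD of *Anp32b*, 0.39 on the log2 scale, was larger than that of 92.3% of the genes tested and of 97.0% of the 867 genes within 2-fold of its level. Without cell bodies replicate 2 its log2 fold change was 0.53 (limma, adjusted p = 0.307), and without protrusions replicate 2 it was 0.55 (limma, adjusted p = 0.357). Without cell bodies replicate 1 and without protrusions replicate 1 it was 1.10 and 1.08. The direction held in each case, and the size rested largely on the libraries of replicate 2.

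*Anp32a*, on chromosome 9 from 62341343 to 62378805, encodes a protein of the same fold that inhibits protein phosphatase 2A and the acetylation of histones. It was at 158 and 123 TPM in cell bodies replicates 1 and 2 and at 153 and 146 TPM in protrusions. The fractions overlapped, with the lowest value in cell bodies replicate 2, as for *Anp32b*. The log2 fold change was 0.10 (95% CI -0.27 to 0.47, limma, adjusted p = 0.679), negative within replicate 1 (-0.04) and positive within replicate 2 (0.24).
*Anp32e*, on chromosome 3 from 95929257 to 95947387, was at 150 and 142 TPM in cell bodies and at 141 and 150 TPM in protrusions. The values of the H2A.Z chaperone overlapped between the fractions. Its log2 fold change was -0.00, with a 95% CI of -0.27 to 0.26 (limma, adjusted p = 0.987). The intervals of both paralogs exclude a 2-fold difference in either direction, while that of *Anp32b* includes one.

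**Figure D1:**
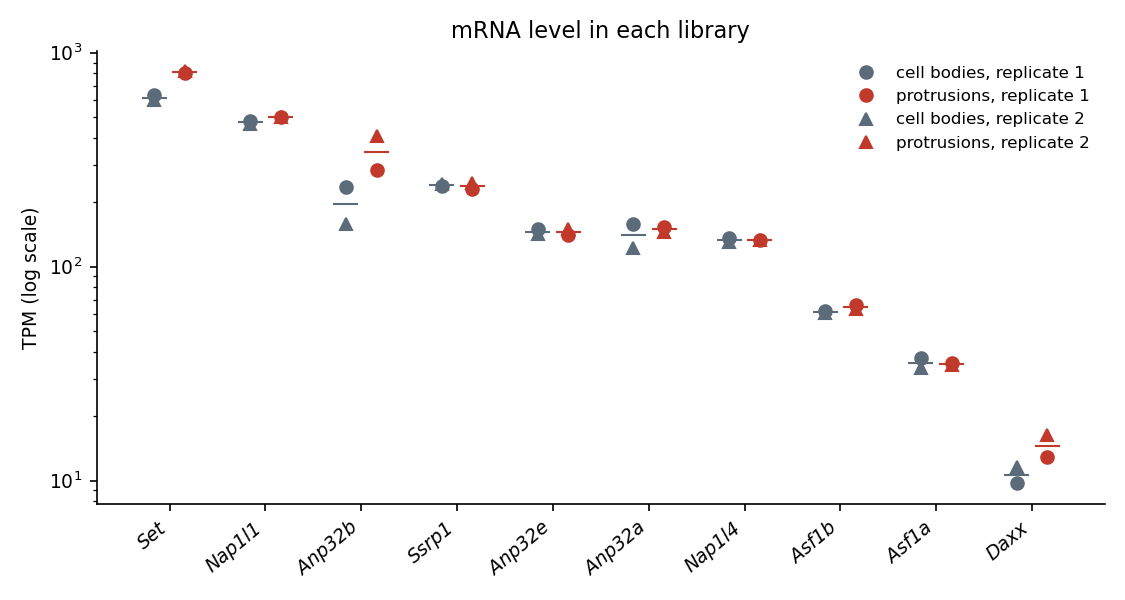
TPM (log axis) of the 10 mRNAs in each of the 4 libraries, ordered by the mean of all 4 libraries. Circles are replicate 1 and triangles replicate 2, gray for cell bodies and red for protrusions, and the short bars are fraction means. *Anp32b* runs from 158 to 407 TPM and is the mRNA whose libraries lie farthest apart, while *Nap1l4* stays between 130 and 135 TPM.

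*Anp32b* was set against its paralogs within each library, which removes any scaling between libraries. The ratio of *Anp32b* to *Anp32a* was 1.49 and 1.28 in cell bodies replicates 1 and 2 and 1.84 and 2.79 in protrusions. The ratio of *Anp32b* to *Anp32e* was 1.56 and 1.11 in cell bodies and 1.99 and 2.71 in protrusions. Neither ratio overlapped between the fractions. The mean log2 ratio was 0.71 higher in protrusions against *Anp32a* and 0.82 higher against *Anp32e*, and each had an exact two-sided permutation p of 0.333, which is the smallest that 2 against 2 libraries can give. Without protrusions replicate 2 the first difference was 0.41, and without cell bodies replicate 2 it was 0.61. The difference against *Anp32e* lay between 0.57 and 1.06 when any one library was left out.
*Anp32a* and *Anp32e* did not part from each other in the same way. Their log2 ratio was 0.07 and -0.21 in cell bodies and 0.12 and -0.04 in protrusions, a difference of 0.10 with overlapping libraries (exact two-sided permutation p = 0.667). Of the summed TPM of the 3 *Anp32* mRNAs, *Anp32b* made up 43.3% and 37.3% in cell bodies replicates 1 and 2 and 48.9% and 58.0% in protrusions. That sum was 543 and 422 TPM in cell bodies and 576 and 702 TPM in protrusions, without overlap between the fractions.

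**Figure D2:**
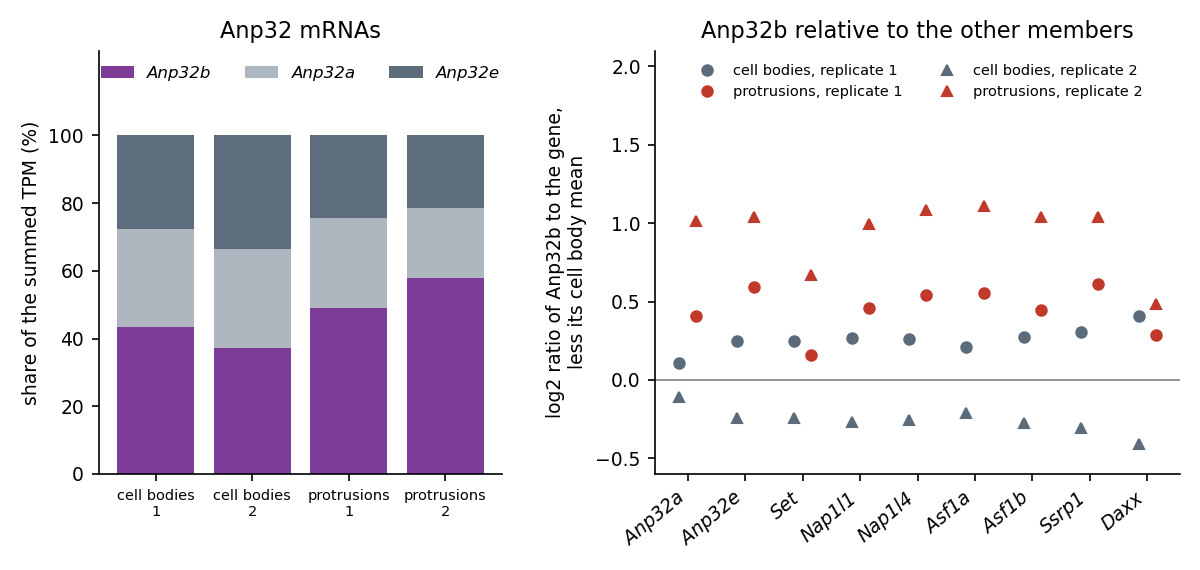
Left, share (%) of each *Anp32* mRNA in the summed TPM of the 3 in each library. Right, log2 ratio of *Anp32b* to each other member in each library, less the mean of the 2 cell body libraries, with symbols for fraction and replicate. The *Anp32b* share is 43.3% and 37.3% in cell bodies and 48.9% and 58.0% in protrusions, and on the right the red protrusion symbols lie above both gray ones except against *Set* and *Daxx*.

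Against the 7 other members, the log2 ratio of *Anp32b* was 0.73 to 0.83 higher in protrusions for *Nap1l1*, *Nap1l4*, *Asf1a*, *Asf1b* and *Ssrp1*, without overlap between the fractions (exact two-sided permutation p = 0.333 for each). Against *Set* it was 0.41 higher and against *Daxx* 0.39 higher, and in both cases the libraries overlapped (exact two-sided permutation p = 0.667 for each). When one library was left out the lowest of these differences were 0.46 for *Nap1l1*, 0.54 for *Nap1l4*, 0.55 for *Asf1a*, 0.45 for *Asf1b* and 0.52 for *Ssrp1*, and after the GC correction the difference was 0.39 for *Nap1l1* and 0.49 for *Asf1a*. Against *Set* it was 0.17 when cell bodies replicate 2 was left out, 0.16 when protrusions replicate 2 was, and 0.21 after the GC correction, and against *Daxx* it was -0.02 without cell bodies replicate 2. With 9 ratios and a smallest p of 0.333, no ratio could pass 0.05 before or after adjustment. All 9 ratios share the *Anp32b* values, so they are not 9 separate observations.

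*Set* encodes a chaperone of the inhibitor complex that masks histones from acetyltransferases, and also an inhibitor of protein phosphatase 2A. It lies on chromosome 2 from 30061996 to 30072577 and was the most abundant of the 10 mRNAs. *Set* was at 634 and 598 TPM in cell bodies and at 807 and 818 TPM in protrusions, with 24064 to 43208 reads per library. The fractions did not overlap and the replicates were close, with a log2 fold change of 0.35 within replicate 1 and 0.45 within replicate 2. The mean log2 fold change was 0.40 (SE 0.10, 95% CI 0.15 to 0.65), and limma gave an adjusted p of 0.0682 without the block and of 0.0365 under it. The interval excludes a 2-fold difference. Of the 50-base stretches of the *Set* transcript, 42.3% also occur in 13 other annotated genes, 11 of them pseudogenes, so its reads may be shared. For *Anp32b* 12.1% were shared, with the pseudogenes *Anp32b-ps1* and *Gm5263*, and for *Anp32a* 5.48%, and the sources used here do not say how the authors' counting treated such reads.

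The nucleosome assembly proteins NAP1L1 and NAP1L4 carry histones H2A and H2B and also have acidic stretches. *Nap1l1* was at 478 and 466 TPM in cell bodies and at 502 and 500 TPM in protrusions. Its libraries did not overlap, yet the log2 fold change was only 0.08 (95% CI -0.16 to 0.33, limma, adjusted p = 0.599), and 25.2% of its 50-base stretches also occur in other genes. *Nap1l4* was at 135 and 130 TPM in cell bodies and at 133 in both protrusion libraries, with a log2 fold change of 0.00 (95% CI -0.26 to 0.26, limma, adjusted p = 0.993). *Nap1l4* was the most even of the members across the 4 libraries.

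ASF1A and ASF1B receive histones H3 and H4 and pass them to the assembly factors of replication and of H3.3 deposition. *Asf1a* was at 37.3 and 33.5 TPM in cell bodies and at 35.3 and 34.6 TPM in protrusions. *Asf1b*, the paralog linked to proliferation, was at 62.3 and 61.0 TPM in cell bodies and at 66.1 and 63.2 TPM in protrusions. In both genes the difference was smaller than its error. The log2 fold change was -0.02 for *Asf1a* (95% CI -0.33 to 0.29, limma, adjusted p = 0.942) and 0.07 for *Asf1b* (95% CI -0.21 to 0.34, limma, adjusted p = 0.709), although the *Asf1b* libraries did not overlap. After the GC correction the values were 0.36 for *Asf1a* and 0.10 for *Asf1b* (limma, adjusted p = 0.162 and 0.603).
SSRP1 is the subunit of the FACT complex that pairs with SPT16 to loosen nucleosomes ahead of RNA polymerase. *Ssrp1* was at 237 and 243 TPM in cell bodies and at 230 and 247 TPM in protrusions, so that the protrusion libraries enclosed the cell body libraries. Its log2 fold change was -0.01 (95% CI -0.27 to 0.25, limma, adjusted p = 0.956).
DAXX deposits the histone variant H3.3 together with the remodeler ATRX. *Daxx*, on chromosome 17, was the least abundant member, at 9.72 and 11.6 TPM in cell bodies and at 12.8 and 16.3 TPM in protrusions, from 425 to 785 reads per library. Both protrusion libraries were higher. The log2 fold change was 0.43 (SE 0.18, 95% CI -0.03 to 0.88), 0.38 within replicate 1 and 0.47 within replicate 2, and limma gave an adjusted p of 0.177 without the block and of 0.108 under it. The interval of *Daxx* includes 0 and excludes a 2-fold difference.

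**Figure D3:**
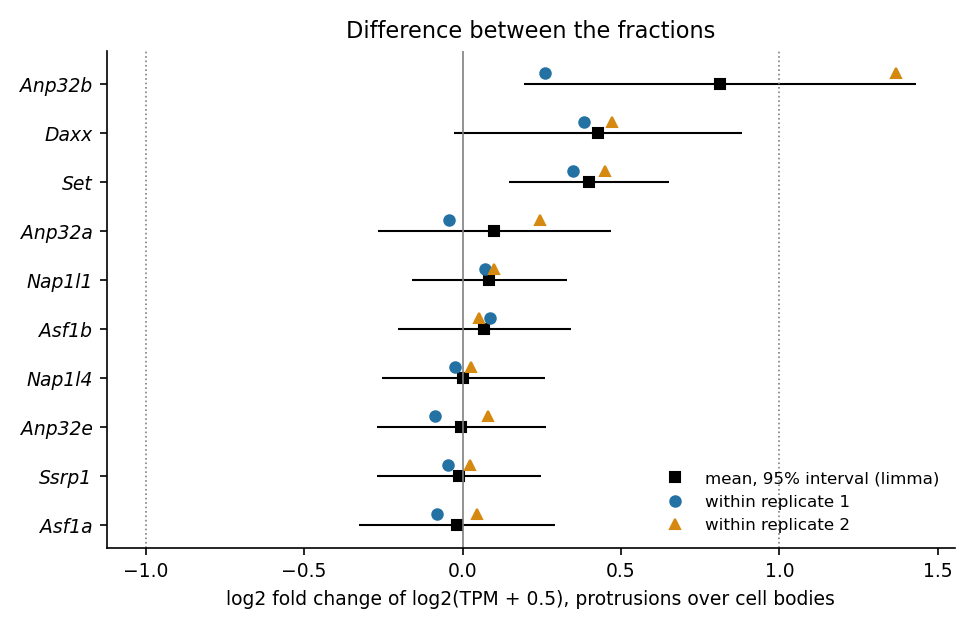
Difference between protrusions and cell bodies on the log2(TPM + 0.5) scale for the 10 mRNAs, as the limma estimate (squares) with its 95% confidence interval (bars) and as the difference within replicate 1 (circles) and within replicate 2 (triangles). Dotted lines mark 2-fold differences. *Anp32b*, at 0.26 and 1.37 within the replicates, is the member whose replicates differ most, and the intervals of *Anp32b* and *Set* lie above 0.

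As a group, the 10 mRNAs had a median log2 fold change of 0.08, against -0.07 over all genes tested, with a range of -0.02 to 0.81. For 5 of them, *Anp32b*, *Set*, *Nap1l1*, *Asf1b* and *Daxx*, both protrusion libraries lay above both cell body libraries, where 26.4% of all genes tested did so. *Anp32b*, *Set* and *Daxx* kept their direction under all 14 alternatives tried, and *Nap1l1* and *Asf1b* under 13, with the exception of scaling to *Ppia* and *Ywhaz*. For the other 5 the fractions overlapped, and none had both protrusion libraries below, where 37% of all genes tested did.
In cell bodies the order of the means was *Set* (616 TPM), *Nap1l1* (472 TPM), *Ssrp1* (240 TPM), *Anp32b* (196 TPM), *Anp32e* (146 TPM), *Anp32a* (140 TPM), *Nap1l4* (133 TPM), *Asf1b* (61.6 TPM), *Asf1a* (35.4 TPM) and *Daxx* (10.7 TPM). The libraries of *Anp32a* overlapped with those of *Anp32e*, of *Nap1l4* and of *Anp32b*, while both *Anp32e* libraries lay above both *Nap1l4* libraries. In protrusions *Anp32b*, at 344 TPM, came before *Ssrp1*, at 238 TPM, with every *Anp32b* library above every *Ssrp1* library.

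The tested genes whose pattern over the 4 libraries was most like that of *Anp32b*, by Euclidean distance of centered log2(TPM + 0.5), were *Limk1* (distance 0.14), *Rplp2* (0.16), *Efhd2* (0.19), *Rac3* (0.22) and *Zfp523* (0.25). *Limk1*, which encodes a kinase that inactivates the actin-severing protein cofilin, was at 5.97 and 4.13 TPM in cell bodies and at 7.76 and 12.4 TPM in protrusions. *Rplp2*, which encodes an acidic protein of the ribosomal stalk, was at 1660 and 1256 TPM in cell bodies and at 2070 and 2793 TPM in protrusions. As in *Anp32b*, the lowest library of both was cell bodies replicate 2 and the highest was protrusions replicate 2. This likeness follows from how they were picked and is not a separate observation. The measure rests on 4 libraries and was given no test.

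The paralogs were also compared in sequence, as a description. The aligned coding sequences were 70.3% identical between *Anp32a* and *Anp32b*, 68.5% between *Anp32a* and *Anp32e*, and 64.9% between *Anp32b* and *Anp32e*. Codons that begin with GA and encode aspartate or glutamate made up 39.6% of the *Anp32b* coding sequence, 36.8% in *Anp32e*, 35.5% in *Anp32a*, 29.7% in *Set* and 26.5% in *Nap1l1*. The median over 10541 genes was 11.98%, and each of these 5 was above at least 99.7% of genes, led by *Anp32b*. The share was 21.7% in *Nap1l4*, 19.2% in *Daxx*, 17.3% in *Ssrp1*, 15.6% in *Asf1a* and 14.3% in *Asf1b*.
Hexamers made of GAAG and any 2 purines were counted on the transcript's own strand, overlapping matches included and the other strand not searched. They occurred 21.98 times per kilobase of coding sequence in *Anp32b*, 17.5 in *Anp32a*, 14.1 in *Anp32e* and 0 in *Asf1b*, against a median of 3.15, and 92.5% of coding sequences held at least 1. In the 3′ UTR the order was another. The 503-base 3′ UTR of *Anp32b* held 0 of these hexamers, that of *Anp32a* (1197 bases) held 2 and that of *Anp32e* (2140 bases) held 1, while 69.0% of all 3′ UTRs held at least 1. No match says only that these letters are not in that stretch.
*Anp32b*, *Anp32e* and *Anp32a*, in order the members with the largest shares of acidic codons, had log2 fold changes of 0.81, -0.00 and 0.10. A link between this share and the fold change was not tested. The 141 tested genes with at least the share of *Nap1l4* had a median log2 fold change of 0.03, against -0.05 over the 10541 genes, and 4.26% of them were higher in protrusions and 4.96% lower by limma without the block, against 3.11% and 3.65% over the 10541 genes. Of the 227 genes with a coding window of 30 purines, such as *Daxx*, 4.85% were higher and 1.32% lower. These sets hold members of this list and are given as descriptions.

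**Figure D4:**
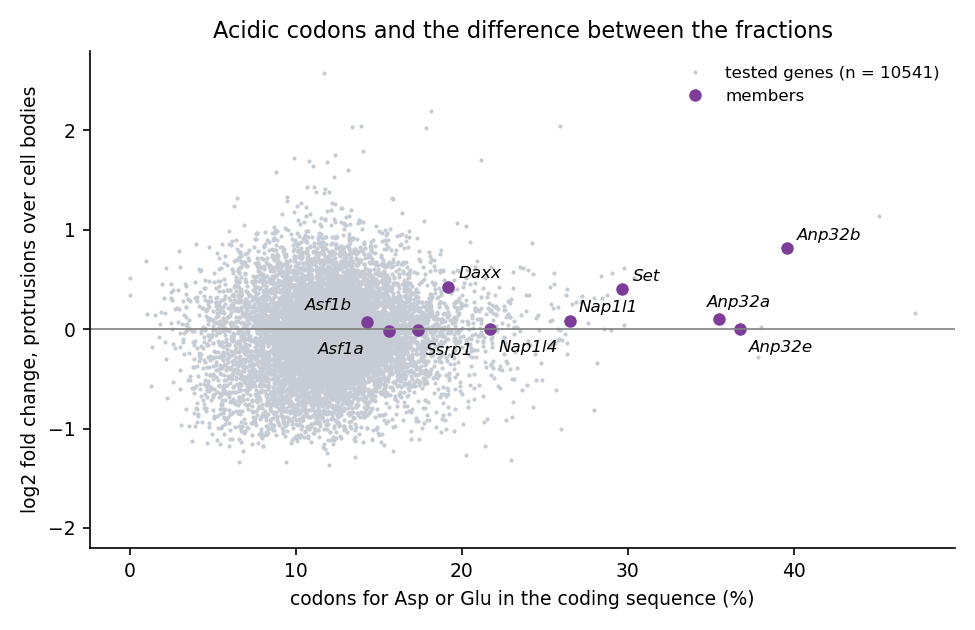
Share of codons for aspartate or glutamate in the coding sequence (%) against the log2 fold change (protrusions less cell bodies), for 10541 tested genes (gray points, with 1 gene outside the plotted range) and the 10 members (purple). *Anp32b*, *Anp32e* and *Anp32a* lie together at 35.5% to 39.6% acidic codons, with log2 fold changes of 0.81, -0.00 and 0.10.

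Of 29 histone chaperones outside the 10, among them assembly factors, FACT and nucleoplasmins, 26 were tested and 0 passed limma without the block, with a median log2 fold change of -0.07, equal to that over all genes. An unadjusted p under 0.05 was found for 7, where 31.3% of all genes had one. With the block 3 of the 26 were lower, near the 13.3% of all genes, and 0 higher, where 8.08% of all genes were. With the block and the GC correction 0 were lower and 4 higher, where 14.6% and 12.8% of all genes were. *Nasp*, which encodes a chaperone of soluble H3 and H4 and of linker histones, was at 148 and 130 TPM in cell bodies and at 102 and 85.6 TPM in protrusions (log2 fold change -0.57, adjusted p = 0.0642 from limma, 0.00895 under the block). *Atrx*, the partner of DAXX, was at 78.3 and 78.1 TPM in cell bodies and at 55.9 and 39.9 TPM in protrusions (log2 fold change -0.72, adjusted p = 0.0645 from limma, 0.00716 under the block). After the GC correction the log2 fold change was -0.36 for *Nasp* and -0.35 for *Atrx*, and neither passed with the block (limma, adjusted p = 0.0534 and 0.0555). The other gene that passed with the block alone was *Supt16*, which encodes the FACT partner of SSRP1, at a log2 fold change of -0.41, and it is named after its value was seen. The mRNAs of both partnerships thus had different values: -0.01 for *Ssrp1* beside -0.41 for *Supt16*, and 0.43 for *Daxx* beside -0.72 for *Atrx*, and the difference within a pair was not tested.
Among 9 kinases and importins that serve chaperones, 0 passed without the block and 2 were lower with it, where 13.3% of all genes were. With the block and the GC correction 1 was higher and 0 lower, where 12.8% and 14.6% of all genes were. *Kpna2*, which encodes an importin alpha, had a log2 fold change of -0.55 (adjusted p = 0.0544 from limma, 0.01004 under the block), and *Ipo7*, which encodes an importer of histone H1, one of -0.39 (adjusted p = 0.0785 from limma, 0.0408 under the block). After the GC correction the values were -0.35 for *Kpna2* and -0.08 for *Ipo7*, and neither passed with the block (limma, adjusted p = 0.108 and 0.737). Of 10 genes of H3.3 and DAXX partners, 0 passed without the block and 1 in each direction with it, where 8.08% of all genes were higher and 13.3% lower. With the block and the GC correction 4 were higher and 0 lower, where 12.8% and 14.6% of all genes were. The higher one with the block alone was *Hipk1*, which encodes a kinase that phosphorylates DAXX, with a log2 fold change of 0.47 (adjusted p = 0.0800 from limma, 0.0406 under the block), and the lower one was *Atrx*.

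The genes around the other known roles of ANP32 and SET proteins were read from the same fit. For H2A.Z exchange, where ANP32E acts, 12 of 13 listed genes were tested and 0 passed with or without the block, 3 had an unadjusted p under 0.05 (31.3% of all genes did), and the median log2 fold change was 0.01. With the block and the GC correction 1 was higher and 1 lower, where 12.8% and 14.6% of all genes were. *Actr6*, of the SRCAP complex, had a log2 fold change of -0.42 (limma, adjusted p = 0.0964) and *Vps72*, which encodes the H2A.Z-binding subunit YL1, one of 0.41 (limma, adjusted p = 0.112). After the GC correction these values were -0.05 and 0.24 (limma, adjusted p = 0.837 and 0.278).
Of 16 genes of protein phosphatase 2A, the enzyme that ANP32A and SET inhibit, 7 had an unadjusted p under 0.05. Over all genes tested 31.3% had one. Without the block 1 of the 16 passed and was higher, where 2.99% of all genes were. *Ppp2r5b*, which encodes a regulatory B subunit, rose from 5.94 and 5.61 TPM in cell bodies to 10.5 and 10.8 TPM in protrusions, a log2 fold change of 0.83 (adjusted p = 0.0436 from limma). That call was lost without any one library (log2 fold change 0.79 to 0.87, adjusted p 0.0987 to 0.226 from limma) and with no filter on low values (0.83, adjusted p = 0.106), settings under which limma called 0 genes in all, except for 14 higher and 144 lower without protrusions replicate 1. It was also lost after the GC correction (0.62, adjusted p = 0.0553) and with scaling to *Ppia* and *Ywhaz* (0.70, adjusted p = 0.0513). The median log2 fold change of the 16 was 0.20, and with the block 5 were higher and 1 lower, where 8.08% and 13.3% of all genes were. With the GC correction as well 6 were higher and 0 lower, where 12.8% and 14.6% of all genes were. The lower one with the block alone, listed as *C330027C09Rik* and known as *Cip2a*, encodes another inhibitor of the phosphatase and had a log2 fold change of -0.50.
For HuR and nuclear export, tied to ANP32A and ANP32B, 0 of 6 genes passed without the block, 4 had an unadjusted p under 0.05 (31.3% of all genes did) and the median log2 fold change was -0.21. *Xpo1*, which encodes the exporter CRM1, was at -0.59 (adjusted p = 0.0515 from limma, 0.00791 under the block) and *Nxf1*, which encodes the main mRNA exporter, at -0.56 (adjusted p = 0.0605 from limma, 0.0168 under the block). With the block 3 of the 6 were lower, where 13.3% of all genes were. With the GC correction as well 1 was lower and 1 higher, where 14.6% and 12.8% of all genes were. After that correction *Xpo1* was at -0.28 (limma, adjusted p = 0.146 under the block) and *Nxf1* at -0.43 (limma, adjusted p = 0.0201 under the block).

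Reads assigned to genes ranged from 25854888 to 30994908 per library, and 14784 to 15123 genes were detected. TPM is a share of a fraction's RNA, so more of an mRNA and less of other RNA cannot be told apart. The control mRNAs *Ppia* and *Ywhaz* had log2 fold changes of 0.16 and 0.11, and 5 nuclear RNAs summed to 58285 and 60272 TPM in cell bodies and to 33353 and 34685 TPM in protrusions. *Rmrp* and *Rpph1* gave nearly all of that sum, and the log2 fold changes of the 5 ranged from -0.94 to -0.60. Of 7 melanocyte lineage markers 3 had values, summing to 5.52 to 6.56 TPM, of which *Mitf* gave nearly all. *Sox10*, *Mlana*, *Tyrp1* and *Dct* were not among the 16537 genes with an entry. Liver mRNAs, 8 of 8 with values, summed to 49.6 TPM in protrusions replicate 1 and to 1.07 to 2.81 TPM in the other libraries, 2 of 4 leukocyte markers summed to 2.098 to 3.98 TPM, and 3 endothelial ones to at most 0.13 TPM. The part of these mRNAs in the differences was not tested.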

How the data were processed

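RNA-seq of YUMM1.7 cell bodies and protrusions was analysed, 2 libraries each, grouped and numbered from the labels. The authors deposited 1 table with TPM per library, made from strand-specific, rRNA-depleted single reads on mm10. The methods name TopHat 2.0.12, and the submitters' processing notes STAR and featureCounts without versions. The authors' log2 fold change, p-value, FDR and likelihood ratio score of the 2 fractions, as deposited, were not used. The authors' mean log2 CPM set only the scale of recovered reads. No per-sample column was left out.
limma 3.58.1 with a trend (R 4.3.3) was run on log2(TPM + 0.5) of the 11400 genes whose mean TPM was 1 or more. *P*-values were two-sided and adjusted by Benjamini-Hochberg. On this scale changes of low genes are understated. The read recovery and the fit were tested on simulated data.
Ratios of a gene's TPM gave whole reads within 0.01 in 100% of 16537 genes, 25854888 to 30994908 per library. PCR duplicates cannot be told from molecules, so reads bound counting error only.
Both fractions of a replicate share inserts, and their deviations from the fraction means correlated at 0.45 over 11400 genes. The replicate number was therefore also fitted as a block, and in that fit the variance of a gene is taken mostly from all genes tested. Alternatives were other pseudocounts, filters and scalings, a correction for transcript GC, voom and leaving out each library.
The members and lists were chosen with earlier results of these data known. Named are all members, each list's called genes or else the 2 with the smallest p, and the 5 nearest to *Anp32b*. *Supt16* and *Cip2a* were named after their values were seen. Sequences came from GENCODE M21 transcripts (GRCm38) and, for guides, the study's oligonucleotide list, with Biopython 1.88. Of the table's genes 15710 matched by symbol, 630 by synonym and 197 not. Proteins were not analysed here, and some coding windows are not reported here.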

Additional observations from a re-analysis of the deposited data

How the results depend on the processing

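Under 14 alternatives the log2 fold change of *Anp32b* lay between 0.53 and 1.10 (limma, adjusted p 0.00769 to 0.357), that of *Set* between 0.26 and 0.63 and that of *Daxx* between 0.26 and 0.59, each positive throughout, and no called value changed sign. With the replicate block 2 members were higher, and 6 genes of the wider lists together were higher and 9 lower, 3 of these among the other histone chaperones. With the block and a correction for GC content 3 members were higher, *Nap1l1* being added (log2 fold change 0.46, limma, adjusted p = 0.0466), with 17 genes of the wider lists higher and 2 lower, and 4 other chaperones higher. The block changed the call of no other member. Of all genes tested 8.08% were higher and 13.3% lower with the block, and 12.8% and 14.6% with the GC correction as well. The wider lists held 26, 9, 12, 10, 16 and 6 tested genes, with *Atrx* in more than 1. Of these, a mean TPM of at least 5 gave 5 genes lower, 2 of them other chaperones, where 801 of 9373 genes were. Scaling by the median of ratios gave 2 higher, where 492 of 11400 genes were. Scaling to *Ppia* and *Ywhaz* moved the median of all genes from -0.07 to -0.20. It gave 0 higher and 9 lower, 3 of them other chaperones, where 208 and 1068 of 11400 genes were. Voom gave 6 higher and 2 lower, among them 2 and 1 other chaperones, where 810 and 840 of 11400 genes were. With no filter, and without any one library, 0 were higher (range 0 to 0). Over all genes limma without the block called 826, with it 2434, with no filter 0, and 0 without replicate 1 of cell bodies or replicate 2 of either fraction, although 3157, 2362 (cell bodies) and 1899 (protrusions) had an unadjusted p under 0.05. Without protrusions replicate 1 it called 14 higher and 144 lower. The difference of *Anp32b* to *Anp32a* was 0.41 to 1.01 and to *Anp32e* 0.57 to 1.06 without any one library, and 0.61 and 0.62 after the GC correction. That to *Daxx* was -0.02 without cell bodies replicate 2. With 2 libraries a fraction and uneven replicates, a difference of the size of *Anp32b* did not pass limma without the block, and the cause of the changes between settings was not tested. Where one library was left out, the lone library of its fraction was assumed to vary like the other fraction.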
